A study of Bos taurus with 16 samples.

Results

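The Hippo pathway genes YAP1, WWTR1, TEAD1, TEAD3, LATS1, LATS2, AMOTL1, AMOTL2, NF2 and STK3 were followed through bovine preimplantation development. They were chosen by name among the 27393 loci of the RNA-Seq data. Of the 10 names, 9 matched a locus, each of them 1 locus only. YAP1 matched no locus name and was not analysed here. The samples were single MII oocytes and single embryos of Bos taurus developed in vivo, at the 2-cell (2C), 4-cell (4C), 8-cell (8C), 16-cell (16C), early morula (EM), compact morula (CM) and blastocyst (BL) stages, with 2 samples at each of 8 stages. None of the groups carried a treatment or genetic change in the sample labels. The total RNA of each oocyte or embryo went through 2 rounds of amplification before SOLiD library construction. The study places embryonic genome activation (EGA) between 4C and 8C, which leaves 6 samples before EGA and 10 after it.

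The Hippo pathway is a kinase cascade by which cells translate contact and polarity into transcription. The kinases encoded by STK3 and its paralogue STK4 activate LATS1 and LATS2, which phosphorylate the coactivators YAP1 and WWTR1 (TAZ) and so hold them in the cytoplasm. Unphosphorylated coactivators enter the nucleus and act through TEAD transcription factors, a step best known in the early embryo from the choice between trophectoderm and inner cell mass.

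Levels are given as CPM, the reads of a locus per 1000000 reads of its library. They are not divided by transcript length, so levels of different genes are not ranked against each other. Changes are log2 differences of the deposited value plus 1, which understates changes of low genes. Libraries held between 607672 and 3379426 reads, and 3 reads, taken as the floor of detection, corresponded to 0.888 to 4.94 CPM. Replicates of a stage correlated at 0.723 (8C) to 0.928 (4C), and 5 libraries, both of 2C, both of 8C and CM replicate 2, correlated better with a library of another stage than with their own replicate. The summed oocyte markers GDF9, BMP15, ZP2, ZP3, NLRP5 and FIGLA stood at 232 to 512 CPM from MII to 4C and at 0 to 51.9 CPM from 8C on, with BMP15 listed at 0 throughout. Cumulus markers, mostly HAS2, summed to 78.4 to 321 CPM before EGA and to 0 to 31.7 CPM after it, with AMH at 0 throughout. Trophectoderm markers (CDX2, GATA2, GATA3, KRT8, KRT18, DAB2 and TFAP2C) summed to 21.3 to 51.8 CPM before EGA, to 71.2 to 629 CPM from 8C to CM and to 1431 to 1512 CPM in BL, although CDX2 had 1 read in all. Inner cell mass markers (NANOG, SOX2 and POU5F1) summed to 123 to 301 CPM before EGA and to 2520 to 5932 CPM after it, mostly POU5F1, with NANOG at 0 in every sample before EGA. SOX2 did not share this rise, with stage means of 1.33 to 4.46 CPM before EGA and 1.22 to 6.15 CPM after it. Sperm markers (PRM1, TNP1 and TNP2) summed to 0 to 9.81 CPM. The part of these markers in the changes across EGA was not tested. Values are shares of the reads of a whole oocyte or embryo, so that fewer cells of a type and less RNA per cell cannot be told apart.

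Of the 9 genes, 5 differed among the 8 stages (WWTR1, TEAD3, STK3, LATS2 and AMOTL2), out of 7 with enough reads for the test, while 66.7% of all 9670 loci tested passed the same threshold. TEAD1 and NF2 were tested and did not pass. LATS1 and AMOTL1 had too few reads for the model. The plot of levels by stage shows how differently the 9 genes ran.

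**Figure D1:**
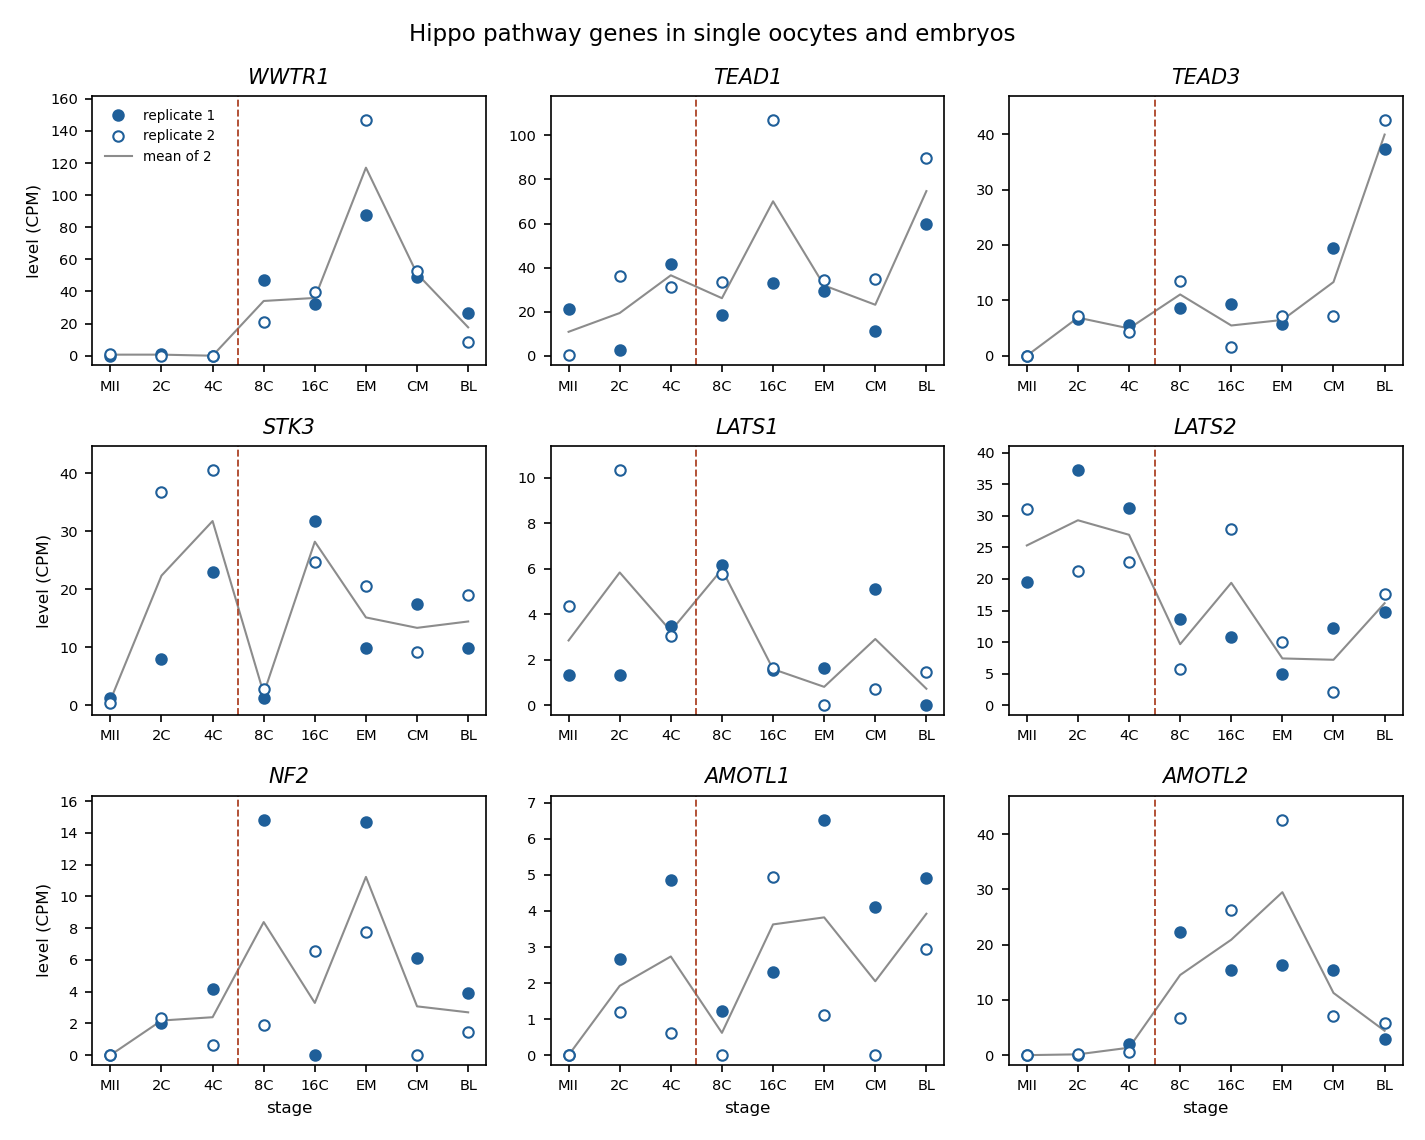
Levels of 9 Hippo pathway genes (CPM, vertical axis, scaled separately for each gene) by stage (horizontal axis), with filled and open points for the 2 replicates, a grey line through their mean and a dashed line where genome activation is placed. WWTR1 and AMOTL2 leave the floor at 8C and are highest in EM, TEAD3 is highest in BL, and LATS2 is lower at most stages after 4C.

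WWTR1, the coactivator TAZ (XLOC_000378), was close to absent before EGA and present in every embryo after it. MII oocytes had 0 and 1.31 CPM, 2C embryos 1.33 and 0 CPM, and neither 4C embryo had a read. The 8C embryos had 47.0 and 21.2 CPM, and 16C embryos 32.5 and 39.5 CPM. Levels then reached 87.4 and 147 CPM in EM and stood at 49.2 and 52.8 CPM in CM and 26.5 and 8.81 CPM in BL. The 10 later samples did not overlap the 6 earlier ones, and EM lay above all other stages. The share of all loci without such overlap was not counted, here and below. Mean levels were 0.441 ± 0.683 CPM before EGA (SD, n = 6, from 5 reads in all) and 51.2 ± 39.8 CPM after it (SD, n = 10), a ratio of 116. With so few earlier reads the ratio is uncertain, and it was 192 without MII replicate 2 (2 earlier reads, 95% exact Poisson interval of their number giving 53.2 to 1587) and 195 without 2C replicate 1 (3 reads, 66.6 to 944). Such intervals cover counting error only. The rise across EGA was 4.92 on the log2 scale (SE 0.51, adjusted p = 3.9e-08 by limma), and it passed under each of 26 alternatives. From 4C to 8C the log2 rise was 5.42 (SE 0.84, adjusted p = 3.0e-04 by limma), at least 34.9-fold when 4C is set at 3 reads over both embryos. That limit was 21.6-fold without 8C replicate 1, 18.5-fold without 4C replicate 1 and 16.4-fold without 4C replicate 2. In the order of stage means, EM was apart from CM and CM from 16C, whereas the values of 16C and 8C overlapped, as did those of 8C and BL.

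The 2 TEAD factors, the DNA-binding partners of the coactivators, ran differently from WWTR1. TEAD3 (XLOC_039619) had no read in either MII oocyte, 6.66 and 7.10 CPM in 2C and 5.56 and 4.30 CPM in 4C. It stood at 8.66 and 13.5 CPM in 8C, 9.27 and 1.65 CPM in 16C, 5.72 and 7.20 CPM in EM and 19.5 and 7.14 CPM in CM. Both blastocysts, with 37.3 and 42.6 CPM, lay above every other sample. TEAD3 passed the test over stages (adjusted p = 0.0018 by limma). Across EGA, TEAD3 rose by 1.66 on the log2 scale (SE 0.66, adjusted p = 0.0317 by limma), with overlapping groups of 3.94 ± 3.20 CPM (SD, n = 6) and 15.2 ± 13.9 CPM (SD, n = 10). That call was narrow: the adjusted p was 0.0758 by edgeR and 0.0534 with no filter on low reads, and it was 0.106 without MII replicate 1, 0.103 without MII replicate 2, 0.0501 without CM replicate 1, 0.0546 without BL replicate 1 and 0.0535 without BL replicate 2 by limma.

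TEAD1 (XLOC_017517) was read in all 16 samples, with replicates far apart at several stages. MII oocytes had 21.3 and 0.438 CPM and 2C embryos 2.66 and 36.1 CPM. From 4C on, the pairs were 41.7 and 31.3 CPM (4C), 18.6 and 33.7 CPM (8C), 33.2 and 107 CPM (16C), 29.4 and 34.3 CPM (EM), 11.3 and 35.0 CPM (CM) and 59.9 and 89.5 CPM (BL). The gap between the 16C embryos was larger than the difference between any 2 stage means, and no stage was apart from its neighbour in the order of means. The stage effect did not pass (adjusted p = 0.250 by limma), but it did without MII replicate 1 (adjusted p = 0.0214). The log2 change across EGA was 1.16 (SE 0.66, adjusted p = 0.128 by limma). It was 0.53 without MII replicate 2 (adjusted p = 0.436), 0.73 without 2C replicate 1 (adjusted p = 0.344) and 0.41 by edgeR (adjusted p = 0.559). It was 1.50 (adjusted p = 0.0486) when libraries were scaled by total reads, a scaling that moved the median of all loci in that comparison up by 0.42. Relative to the median of all loci, the TEAD1 change was 0.93 with the deposited scaling and 0.85 with total reads.

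LATS2, the kinase that phosphorylates the coactivators, was the 1 member to fall across EGA (XLOC_010367). It had 19.5 and 31.1 CPM in MII, 37.3 and 21.3 CPM in 2C and 31.2 and 22.7 CPM in 4C. Levels of 13.6 and 5.77 CPM in 8C, 10.8 and 28.0 CPM in 16C, 4.90 and 9.97 CPM in EM and 12.3 and 2.14 CPM in CM followed, and BL had 14.7 and 17.6 CPM. Among the 10 samples after EGA, 16C replicate 2 alone came within the range of the 6 samples before it. The mean was 27.2 ± 7.03 CPM before EGA (SD, n = 6) and 12.0 ± 7.37 CPM after it (SD, n = 10). LATS2 fell by 1.80 on the log2 scale (SE 0.45, adjusted p = 0.0014 by limma), or by 2.02 relative to the median of all loci, and the fall passed under each of 26 alternatives. Its stage effect (adjusted p = 0.0149 by limma) did not pass with libraries scaled by total reads (adjusted p = 0.0948). The oocyte and cumulus markers given above were also higher in the samples before EGA, and their part in the fall of LATS2 was not tested.

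LATS1, the paralogue of LATS2 (XLOC_070571), had 83 reads in all, of which 35 were in 2C replicate 2. It ranged from 1.33 to 10.4 CPM before EGA (median 3.27, n = 6) and from 0 to 6.19 CPM after it (median 1.59, n = 10). Both 8C embryos, with 6.19 and 5.77 CPM, were above all other samples except 2C replicate 2. The means of 3.99 ± 3.35 and 2.41 ± 2.36 CPM (SD) did not differ beyond the spread (exact permutation test of CPM, 2-sided, p = 0.295). The difference after minus before went from -1.58 to -0.31 CPM without 2C replicate 2 (exact permutation test, p = 0.792).

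STK3, the upstream kinase MST2 (XLOC_015008), changed from stage to stage rather than across EGA as a whole. MII oocytes had 1.33 and 0.438 CPM, 2C embryos 7.99 and 36.7 CPM and 4C embryos 22.9 and 40.6 CPM. In 8C it stood at 1.24 and 2.89 CPM, from 4 reads over both embryos, and in 16C at 31.7 and 24.7 CPM. Later pairs were 9.81 and 20.5 CPM (EM), 17.4 and 9.28 CPM (CM) and 9.82 and 19.1 CPM (BL). The 4 samples of MII and 8C were the lowest of the 16, and no other stage overlapped them. The stage effect passed (adjusted p = 0.0037 by limma). STK3 fell by 3.55 on the log2 scale from 4C to 8C (SE 0.80, adjusted p = 0.0034 by limma), a 15.4-fold ratio of mean CPM, and the fall ranged from -3.95 to -3.16 when single libraries were left out. The ratio was 25.6 without 8C replicate 2, where 1 read was left in 8C (Poisson interval 4.60 to 1013). Across EGA its change was -0.07 (SE 0.70, adjusted p = 0.939 by limma). That value turned to 0.25 with libraries scaled by total reads, and to values between 0.11 and 0.33 without 2C replicate 2, without either 4C embryo or without either 8C embryo, so it has no direction.

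AMOTL2, a member of the angiomotin family of scaffolds that bind the coactivators at cell junctions (XLOC_000421), rose across EGA as WWTR1 did. Its highest mean CPM was also in EM, but unlike WWTR1 its values there overlapped those of 16C. No read was found in MII, and 2C embryos had 0 and 0.296 CPM and 4C embryos 2.08 and 0.615 CPM. Values were 22.3 and 6.73 CPM in 8C, 15.5 and 26.3 CPM in 16C, 16.3 and 42.6 CPM in EM, 15.4 and 7.14 CPM in CM and 2.95 and 5.87 CPM in BL. Samples before and after EGA did not overlap in CPM here either, but the nearest of them, BL replicate 1 and 4C replicate 1, had 3 reads each. Later and earlier means were 16.1 ± 12.0 CPM (SD, n = 10) and 0.499 ± 0.814 CPM (SD, n = 6), a ratio of 32.3. The earlier mean rested on 5 reads, 3 of them in 4C replicate 1, without which the ratio was 88.5 (Poisson interval 24.5 to 731). The log2 rise was 3.35 (SE 0.50, adjusted p = 6.0e-06 by limma) and passed under each of 26 alternatives. From 4C to 8C AMOTL2 rose by 2.73 (SE 0.82, adjusted p = 0.0169 by limma). The call of this step was lost without 4C replicate 2 (a change of 2.21) and without 8C replicate 1 (1.79), where a single embryo was left at that stage. Both 8C embryos lay above both 4C embryos.

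AMOTL1 and NF2, the other scaffolds, were read at low levels. AMOTL1, of the same family as AMOTL2 (XLOC_017392), had 44 reads in all and ranged from 0 to 4.86 CPM before EGA (median 0.899) and from 0 to 6.54 CPM after it (median 2.63), and MII, 8C and CM each held at least 1 library without a read. Its means of 1.55 ± 1.90 and 2.81 ± 2.26 CPM (SD, n = 6 and 10) did not differ beyond the spread (exact permutation test, 2-sided, p = 0.270). NF2, which encodes merlin, a membrane scaffold that recruits the LATS kinases (XLOC_021736), had no read in MII, 2.00 and 2.37 CPM in 2C and 4.17 and 0.615 CPM in 4C. Its later pairs were 14.8 and 1.92 CPM (8C), 0 and 6.58 CPM (16C), 14.7 and 7.75 CPM (EM), 6.15 and 0 CPM (CM) and 3.93 and 1.47 CPM (BL). Replicates of 8C, 16C and CM were thus far apart. NF2 did not pass the stage effect (adjusted p = 0.271 by limma), and its means of 1.52 ± 1.64 CPM before and 5.74 ± 5.48 CPM after EGA (SD, n = 6 and 10) gave p = 0.0913 in the exact permutation test, 1 of 3 such tests.

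Side by side, the comparison of samples after and before EGA called 3 of the 6 members tested higher (WWTR1, TEAD3 and AMOTL2) and 1 lower (LATS2), where 36.9% of all 6910 loci tested were higher and 29.9% lower. From 4C to 8C, 2 of 7 were higher (WWTR1 and AMOTL2) and 1 lower (STK3), against 17.7% and 19.1% of all loci. These shares were 1711 and 1849 loci by limma, where edgeR called 1656 higher and 1083 lower and DESeq2 1648 and 1191. From MII to 2C none of 7 passed by limma, against 1.20% of all loci higher and 0.217% lower (116 and 21 loci, or 486 and 10 with libraries scaled by total reads). At an unadjusted p under 0.05 there were 2, TEAD3 and STK3, both higher in 2C. DESeq2 and limma with libraries scaled by total reads called both, limma with a pseudocount of 0.5 called TEAD3, and edgeR called neither.

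These 2 genes were at or near 0 in the oocytes and were read in both 2C embryos. TEAD3 was at least 10.4-fold higher in 2C than in MII, when MII is set at 3 reads over both oocytes (5.23-fold without MII replicate 1 and 5.17-fold without MII replicate 2), with a log2 change of 3.22 (SE 0.81, adjusted p = 0.0568 by limma). STK3 had a ratio of 25.3, from 4 reads in MII, and a log2 change of 2.98 (SE 0.80, adjusted p = 0.0700 by limma). For TEAD3 the adjusted p ranged from 0.0403 to 0.218 when single libraries were left out: it was 0.0418 without 8C replicate 1, 0.0410 without 8C replicate 2, 0.0411 without 16C replicate 1 and 0.0403 without 16C replicate 2, and above the threshold without any other library. For STK3 it ranged from 0.0281 to 0.418. It was 0.0281 without 2C replicate 1, 0.0493 without 8C replicate 1 and 0.0495 without 8C replicate 2, and above the threshold without any other library. Without 2C replicate 2 the STK3 ratio was 9.04 and the log2 change 1.91 (adjusted p = 0.418), and without 2C replicate 1 they were 41.5 and 4.05. The ratio was 51.0 without MII replicate 1, where 1 oocyte read was left (Poisson interval 9.15 to 2013), and 16.8 without MII replicate 2, where 3 were left (5.75 to 81.5).

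**Figure D2:**
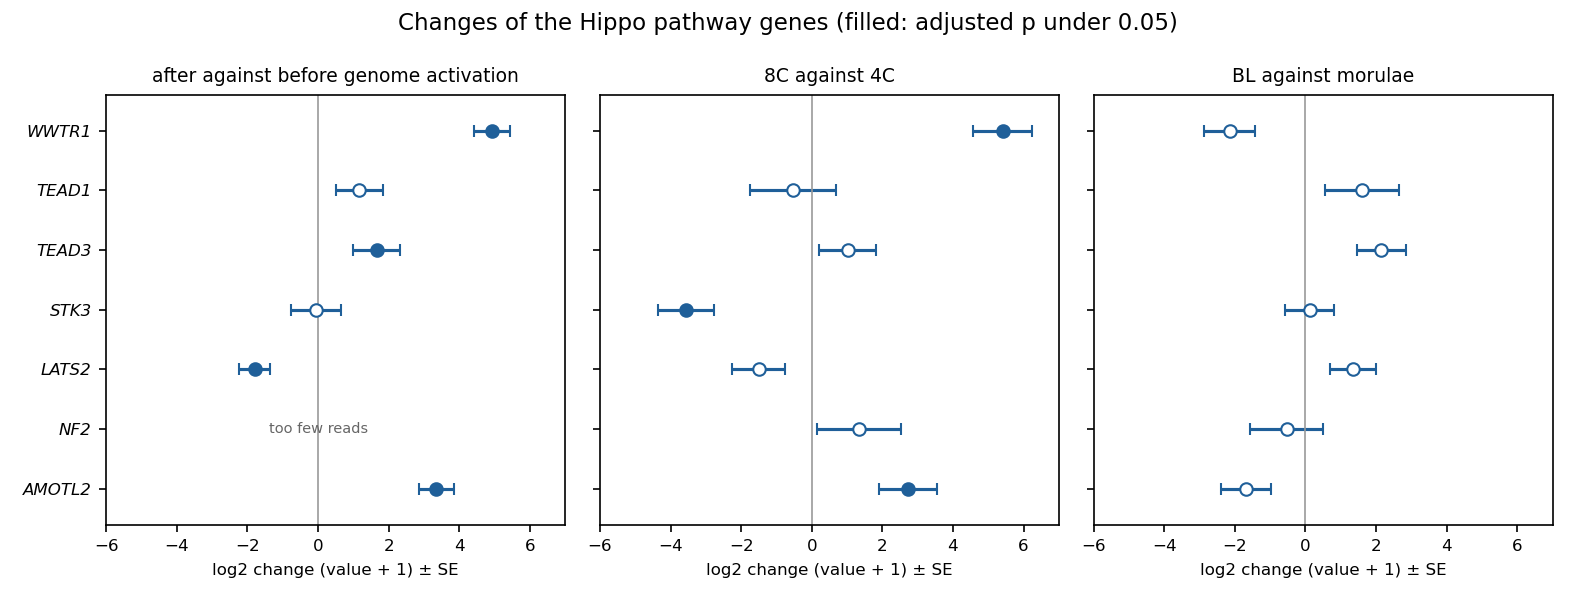
Log2 changes of the deposited value plus 1 (horizontal axis, points, with bars of 1 SE) for the members with enough reads in 3 comparisons, filled where the adjusted p by limma is under 0.05. WWTR1 has the largest rise both across genome activation (4.92) and from 4C to 8C (5.42), and no point is filled for blastocysts against morulae.

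When the blastocyst forms, its outer cells become trophectoderm, in which the coactivators are known to be nuclear. Compared with the 4 morulae, WWTR1 and AMOTL2 were lower and TEAD1, TEAD3 and LATS2 higher in both blastocysts, without overlap of the CPM values. How many of all loci separate in this way was not counted, and none of these changes passed by limma. WWTR1 averaged 84.1 ± 45.2 CPM in morulae (SD, n = 4) and 17.7 ± 12.5 CPM in BL (SD, n = 2), with a log2 change of -2.14 (SE 0.72, adjusted p = 0.0788 by limma). AMOTL2 averaged 20.4 ± 15.4 and 4.41 ± 2.07 CPM, with a change of -1.68 (SE 0.71, adjusted p = 0.160). TEAD3 averaged 9.88 ± 6.43 and 39.9 ± 3.71 CPM, with a change of 2.15 (SE 0.70, adjusted p = 0.0667).

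The other TEAD factor and the kinase had smaller changes. TEAD1 averaged 27.5 ± 11.1 CPM in morulae and 74.7 ± 20.9 CPM in BL, with a log2 change of 1.60 (SE 1.05, adjusted p = 0.391 by limma), and LATS2 7.33 ± 4.64 and 16.2 ± 2.04 CPM, with a change of 1.35 (SE 0.65, adjusted p = 0.223). STK3 stood at 14.3 ± 5.58 and 14.5 ± 6.55 CPM. None of the 7 members tested passed by limma, edgeR or DESeq2, where 6.02% of all loci were higher and 3.36% lower by limma (582 and 325 loci, or 451 and 415 with TMM scaling). At an unadjusted p under 0.05 there were 3 by limma: WWTR1, TEAD3 and AMOTL2. TEAD3 passed without 16C replicate 1 (adjusted p = 0.0359) and without 16C replicate 2 (0.0338), and WWTR1 passed with libraries scaled by total reads (0.0412) and without 8C replicate 2 and 2C replicate 2 together (0.0482). Both passed with a pseudocount of 5. With single libraries left out, the WWTR1 change ranged from -2.86 (without BL replicate 1, adjusted p = 0.0974) to -1.42 (without BL replicate 2, adjusted p = 0.546), and the TEAD3 change from 1.88 to 2.42, with adjusted p up to 0.348. The summed trophectoderm markers were higher in BL, mostly through KRT8 (514 CPM) and KRT18 (377 CPM), while TFAP2C averaged 273 CPM in EM, 116 CPM in CM and 170 CPM in BL and CDX2 was at 0 reads in all 3 stages. Their part in these differences was not tested.

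Other genes of the pathway were followed through 8 lists. Of 65 genes listed, 59 were found by name and 3 by synonym, 5 of those found had no read (VGLL2, LIMD1 and PARD6B among them, which like BMP15 lie in a run of 2578 consecutive loci listed at 0), and 46 had enough reads for the stage effect, which 30 passed, where 66.7% of all loci passed. Across EGA 12 were higher and 15 lower of 40 tested, beside 36.9% and 29.9% of all loci, and from 4C to 8C 5 were higher and 7 lower of 46, beside 17.7% and 19.1% of all loci (8 and 7 genes without 8C replicate 2 and 2C replicate 2). Of the calls over the stages 8 of 30 (CTNNA1, LLGL1, MOB4, STRN3, TAOK3, TEAD2, VGLL4 and WWC2), of those across EGA 4 of 27 (CTNNA1, PRKCI, TAOK3 and YWHAB), and of those from 4C to 8C 7 of 12 were lost under at least 1 alternative. From MII to 2C CSNK1D, a kinase that marks the coactivators for turnover, named after its values were seen, was the 1 gene of 46 to pass, beside 1.20% of all loci higher and 0.217% lower, with a log2 rise of 3.68 (SE 0.66, adjusted p = 0.0227 by limma). That call was lost without MII replicate 1 (adjusted p = 0.0579) and without 2C replicate 2 (adjusted p = 0.101, or 0.0758 without 8C replicate 2 as well). The map of stage means sets all of these genes beside the members.

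**Figure D3:**
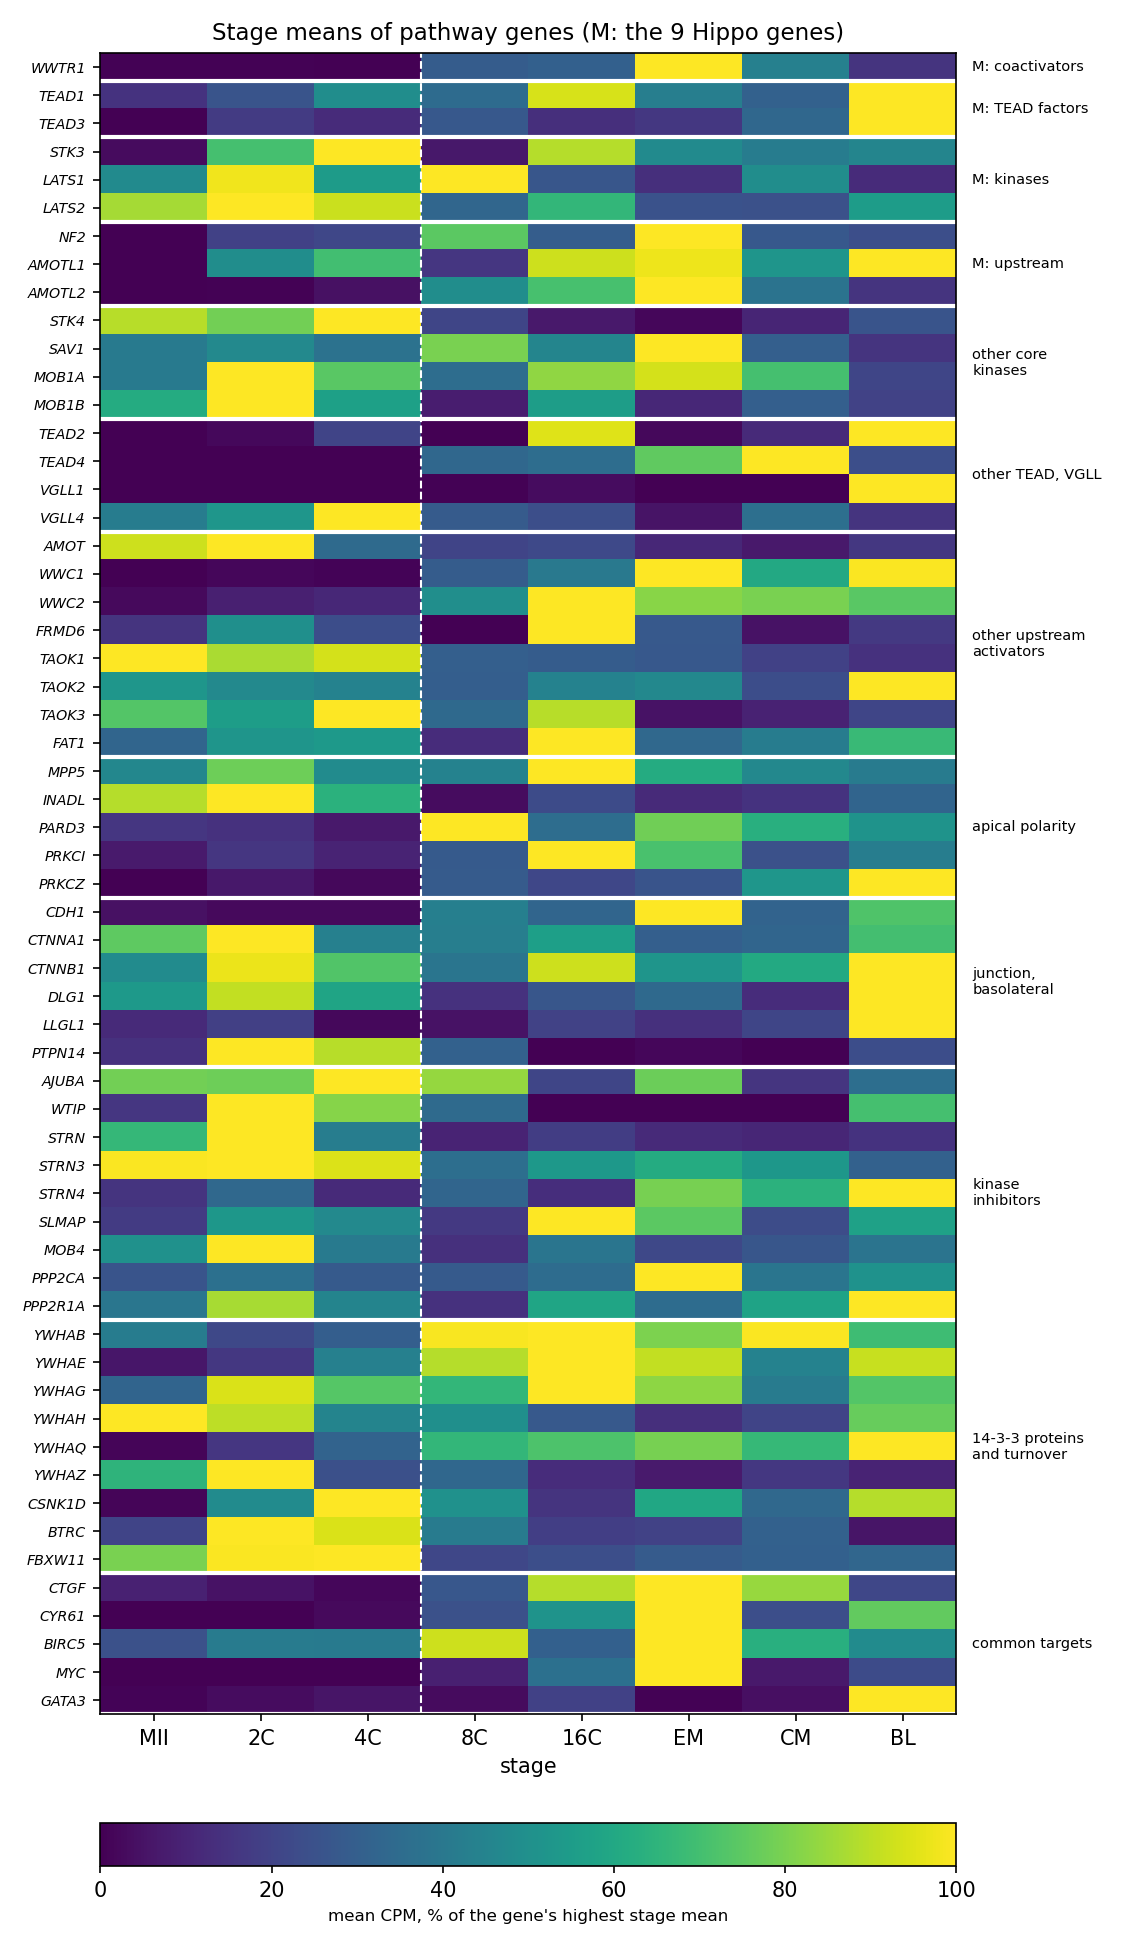
Mean CPM at each stage (columns, mean of 2 samples) as a percentage of the highest stage mean of the same gene (colour scale from 0 to 100), for the 9 members (M) and the other pathway genes with at least 20 reads in all, with a dashed line at genome activation. Genes bright before the line, such as STK4, AMOT, INADL and FBXW11, stand beside genes bright after it, such as TEAD4, WWC1, PRKCZ and CDH1.

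In the core kinase cassette, 2 of 4 genes tested fell across EGA and none rose, with a median log2 change of -1.43, where the median of all 6910 loci was 0.23 and 29.9% of them fell and 36.9% rose. These shares of all loci stand beside each count across EGA that follows. STK4 (MST1), the paralogue of STK3, averaged 21.0 ± 10.2 CPM before EGA (SD, n = 6) and 3.10 ± 3.01 CPM after it (SD, n = 10) and fell by 3.05 (SE 0.55, adjusted p = 5.9e-05 by limma). MOB1A, a coactivator of the LATS kinases, averaged 51.3 ± 31.4 and 43.4 ± 27.1 CPM, with a change of -0.80 (adjusted p = 0.10). Its paralogue MOB1B, named after its values were seen, fell by 2.06 (SE 0.48, adjusted p = 7.6e-04).

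Of the other TEAD factors and their VGLL cofactors, 2 were tested across EGA and moved in opposite directions. TEAD4, the TEAD factor known for trophectoderm formation, had no read in the 6 samples before EGA and between 2.95 and 40.0 CPM (median 12.6) in the 10 samples after it. Its log2 rise was 3.76 (SE 0.46, adjusted p = 4.1e-07 by limma), and it was at least 61.4-fold higher when the earlier samples are set at 3 reads in all. TEAD4 was lower in BL (6.61 ± 5.18 CPM, SD, n = 2) than in morulae (24.1 ± 11.7 CPM, SD, n = 4), a difference not called by limma. Across EGA VGLL4, which competes with the coactivators for TEAD, fell by 1.99 (SE 0.68, adjusted p = 0.0137) from 2399 ± 1583 to 808 ± 738 CPM. Its stage effect (adjusted p = 0.0409 by limma) did not pass under 10 alternatives, with adjusted p from 0.0641 (without EM replicate 1) to 0.201 (without EM replicate 2). Libraries scaled by total reads (0.106), no filter (0.0993) and the fits without either 4C, 16C or BL embryo were the others.

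Upstream of LATS, 2 of 6 genes tested rose and 3 fell. WWC1 (KIBRA), a partner of NF2, rose by 4.68 (SE 0.67, adjusted p = 3.4e-06 by limma), from 0 to 2.66 CPM before EGA to between 0.962 (8C replicate 2) and 117 CPM after it. AMOT, the founder of the angiomotin family, fell by 2.64 (SE 0.47, adjusted p = 5.2e-05), from 104 ± 72.2 to 21.1 ± 12.1 CPM, where AMOTL2 rose. TAOK1, a kinase acting on STK3 and STK4, fell by 2.45 (SE 0.38, adjusted p = 9.5e-06), and its values before EGA, 341 to 802 CPM, lay above those after it, 79.3 to 254 CPM.

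Polarity and junction genes moved both ways. Of 5 apical polarity genes tested, 3 rose and 1 fell. PRKCZ, an atypical protein kinase C, rose by 3.04 (SE 0.50, adjusted p = 1.8e-05 by limma), and INADL, a scaffold of the Crumbs complex, fell by 3.07 (SE 0.55, adjusted p = 5.6e-05). MPP5, of the same complex, had a change of -0.54 (adjusted p = 0.186) on the deposited scale. Its mean CPM did not fall, at 172 ± 55.8 before EGA (SD, n = 6) and 176 ± 81.5 after it (SD, n = 10). Of 5 junction and basolateral genes, 1 rose and 2 fell, or 1 and 1 with libraries scaled by total reads, where CTNNA1 did not pass (adjusted p = 0.139). CDH1, E-cadherin, had 17.5 to 42.1 CPM before EGA and 180 to 1285 CPM after it, without overlap, and rose by 3.40 (SE 0.40, adjusted p = 2.7e-07). DLG1, a basolateral scaffold, fell by 1.77 (SE 0.46, adjusted p = 0.0021).

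Among inhibitors of the kinases, 4 of 7 genes tested fell across EGA and none rose, beside 29.9% and 36.9% of all loci, with a median log2 change of -1.55. STRN, a subunit of the STRIPAK phosphatase complex that acts on STK3 and STK4, fell by 2.78 (SE 0.38, adjusted p = 2.1e-06 by limma), and the phosphatase subunit PPP2CA had a change of 0.12 (adjusted p = 0.733). Of 7 genes for 14-3-3 proteins, which hold phosphorylated coactivators in the cytoplasm, and for coactivator turnover, 3 rose and 2 fell. YWHAB rose by 1.53 (SE 0.54, adjusted p = 0.0170), a call lost by edgeR (0.81, adjusted p = 0.194), by DESeq2 (0.99, adjusted p = 0.0795) and without 2C replicate 1 (1.05, adjusted p = 0.0714). YWHAQ rose by 2.84 (SE 0.57, adjusted p = 1.8e-04), and FBXW11, part of a ubiquitin ligase that degrades the coactivators, fell by 2.31 (SE 0.33, adjusted p = 3.4e-06).

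Common targets of TEAD with its coactivators were tested for 4 of 9 genes, of which 2 rose across EGA and none fell. CYR61 had 2 reads in the 6 samples before EGA and up to 36.5 CPM after it, a log2 rise of 3.10 (SE 0.64, adjusted p = 2.2e-04 by limma), with no read in 8C replicate 2. CTGF, named after its values were seen, rose by 2.96 (SE 0.57, adjusted p = 1.1e-04). Like WWTR1 it was high in morulae, at 77.6 ± 22.6 CPM (SD, n = 4), and had 17.9 ± 1.69 CPM in both blastocysts (SD, n = 2), a log2 change of -1.92 (adjusted p = 0.0589). The other targets tested did not all run this way. Means in morulae and BL were 90.9 and 53.7 CPM for BIRC5, 15.4 and 18.9 CPM for CYR61, and 3.52 and 157 CPM for GATA3. Across EGA BIRC5 had a change of 0.32 (adjusted p = 0.427).

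**Figure D4:**
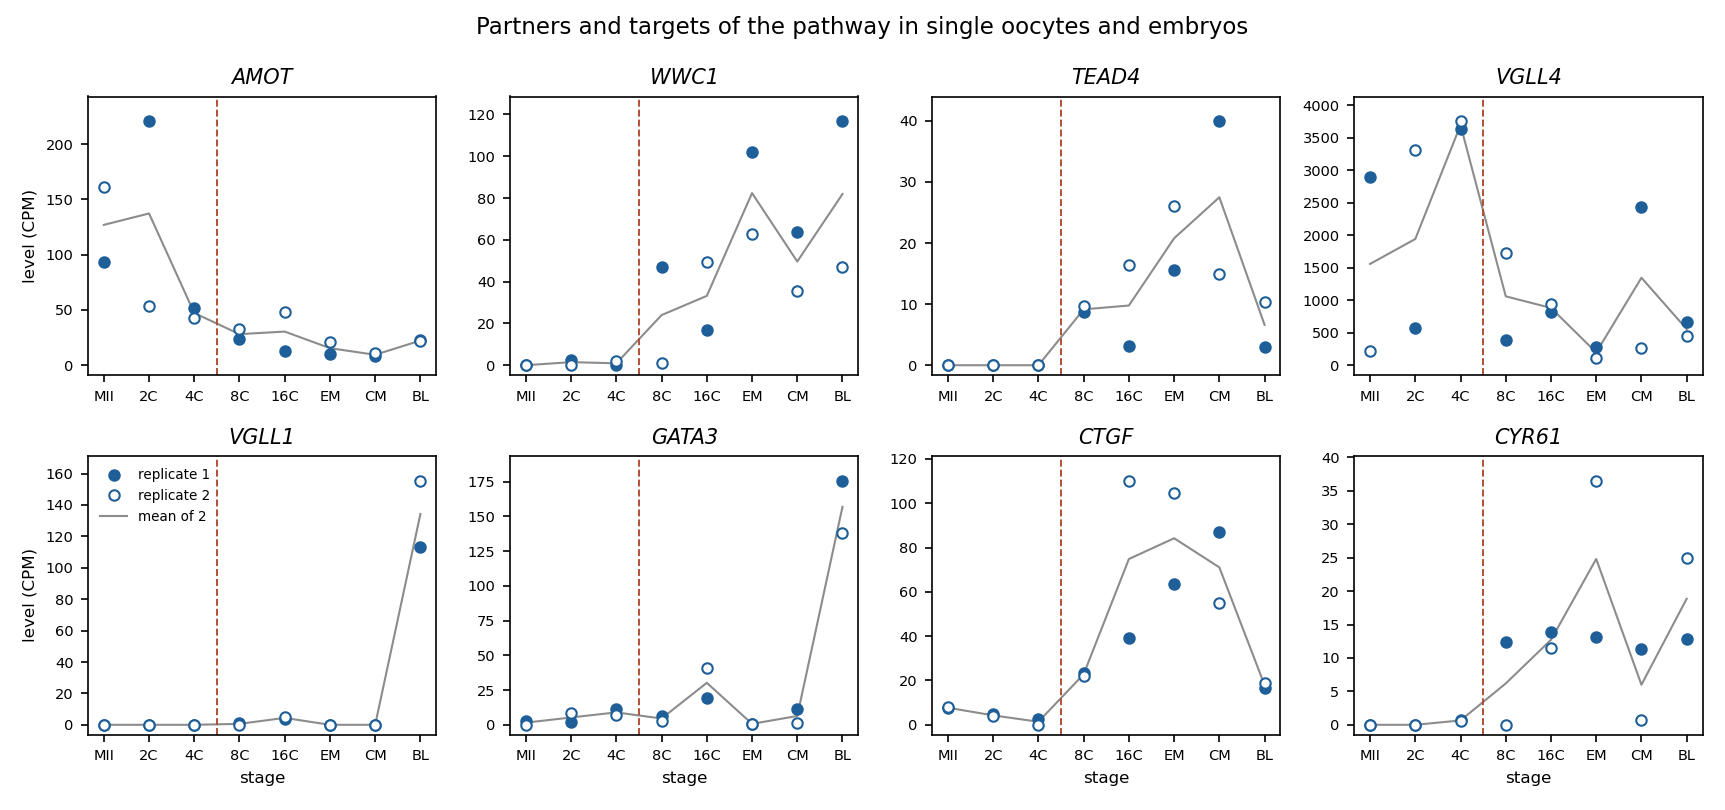
Levels of 8 partners and targets of the pathway (CPM, vertical axis, scaled separately for each gene) by stage, with filled and open points for the 2 replicates, a grey line through their mean and a dashed line where genome activation is placed. TEAD4 is at 0 before the line, VGLL1 and GATA3 are high in both blastocysts, and CTGF is highest from 16C to CM.

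In blastocysts against morulae, 6 of the 46 other pathway genes rose and none fell by limma, beside 6.02% and 3.36% of all loci, or 5 and 1 with libraries scaled by total reads. The genes named from this comparison were chosen after their values were seen. VGLL1, a TEAD cofactor, had no read in the 4 morulae and 113 and 156 CPM in the blastocysts, at least 242-fold more when the morulae are set at 3 reads in all, or 161-fold without EM replicate 2 (log2 change 7.14, SE 0.59, adjusted p = 1.2e-05). GATA3, a trophectoderm transcription factor that also belongs to the marker list, averaged 3.52 ± 5.18 CPM in morulae (SD, n = 4) and 157 ± 26.8 CPM in BL (SD, n = 2), with a rise of 5.73 (SE 0.87, adjusted p = 6.3e-04). TEAD2 (3.23, adjusted p = 0.0495), LLGL1 (2.64, adjusted p = 0.0479), DLG1 (2.34, adjusted p = 0.0103) and YWHAH (2.25, adjusted p = 0.0088) were the other 4. Each of these 4 calls was lost without BL replicate 1 and without BL replicate 2, with adjusted p from 0.0716 (DLG1) to 0.313 (LLGL1). In all, TEAD2 was lost under 17 alternatives, among them the replicate number as a block (adjusted p = 0.0566), edgeR (0.112) and TMM scaling (0.0619). LLGL1 was lost under 15, among them TMM scaling (0.0780) and total reads (0.0582). The VGLL1 and GATA3 calls were lost under no alternative run.

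Loci whose log2 values ran most like each member were sought over the 16 samples among 8365 named loci. For WWTR1 they were SNHG3, PPPDE1 and MCL1, each with a Pearson r of 0.97, and for AMOTL2 BCKDHA (0.95), RND3 (0.95) and PSMG2 (0.94). For LATS2 they were SUCLG2 (0.95), DICER1 (0.92) and TMEM181 (0.92), and for TEAD3 DNPEP (0.93), HSF1 (0.89) and UBR4 (0.89). The nearest loci of the other members were less alike: AP2B1 (0.86), C25H16orf88 (0.85) and HAUS1 (0.85) for TEAD1, MRPS22 (0.85), AADAT (0.84) and DDX31 (0.84) for STK3, and VAPB, SUOX and MCAT (each 0.75) for NF2. The points share stages and libraries, and the correlations describe these samples only.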

How the data were processed

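RNA-Seq values of 16 single bovine oocytes and embryos (8 stages, 2 samples each) were analysed. The deposited signal per locus consists of read counts that the authors divided by a size factor for each library. The submitters' processing notes name cutadapt, FastQC, TopHat, Cufflinks and HTSeq. Versions, genome build, strand of counting and the handling of reads that map to several places were not given in the sources used here, so reads of paralogues may be shared or lost. Because 100% of values above 0 were whole multiples (tolerance 0.001) of the smallest value of their library, whole reads were recovered and CPM computed in Python 3.11.15 with pandas 2.3.3. Libraries held 607672 to 3379426 reads. Floors of 3 reads cover counting error only, since molecules were amplified in 2 rounds and carried no identifiers.

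Differences were tested with limma 3.58.1 (R 4.3.3; empirical Bayes moderation, trended) on log2-transformed deposited values after adding a pseudocount of 1, adjusted over all loci kept by filterByExpr (9670 in the model of 8 stages, 6910 in the model of 2 periods) by the Benjamini-Hochberg method at 0.05. Morulae are EM and CM. The scripts were tested on simulated data. Members too low for the model were compared by exact permutation of CPM with scipy 1.17.1. Replicates are separate oocytes or embryos, and p-values of the model of 8 stages measure the spread between samples of a stage. The model of 2 periods and the exact permutation treat samples of several stages as replicates of a period. Their p-values therefore mix differences between stages with the spread between samples. Lists of other pathway genes held the core kinases, TEAD and VGLL factors, upstream activators, apical polarity, junction, kinase inhibitor, 14-3-3 and turnover, and target genes. Named in the text were all members, the gene of highest mean CPM in each list, the largest rise and the largest fall across EGA in each list among genes passing the stage effect, and the 3 named loci most correlated with each member tested. Members and lists were chosen with earlier results of these data known. Synonyms came from the RefSeq gene table of assembly ARS-UCD2.0. MAP4K4, SCRIB and CSNK1E were listed but matched no locus name.

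Alternatives were scaling by TMM factors or by total reads, a pseudocount of 0.5 or 5, all loci with a read, count tests of recovered reads with edgeR 4.0.16 and DESeq2 1.42.0, a block for the replicate number, the 2 periods compared within the model of 8 stages, and each library left out. Leaving out 8C replicate 2 and 2C replicate 2 together, and the alternatives of the exact tests, were chosen after seeing the data. Calls of other pathway genes under each alternative, summed loci of VGLL4, TAOK1 and YWHAB, which have 2 loci each and are given from the locus of highest mean, and the ratios with each library left out, were also added then. All samples fell in a group, and no column was left out.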

Additional observations from a re-analysis of the deposited data

Results flagged for a closer look

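Among the 18 groups examined (each of the 9 genes in the 6 samples before and in the 10 samples after genome activation), 2 held a sample far from the others, measured by its gap to the next sample as a share of the range of the group. The limit used sets apart about 1 in 20 groups of normally distributed values by chance. Its rate for low counts such as these was not computed. LATS1 stood at 10.4 CPM in 2C replicate 2, where the next of the 6 samples before genome activation had 4.38 CPM, a gap of 0.662 of the range. AMOTL2 stood at 2.08 CPM in 4C replicate 1, which is 3 reads, where the next had 0.615 CPM, a gap of 0.705 of the range.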

How the results depend on the processing

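The calls of WWTR1, LATS2 and AMOTL2 across genome activation, of WWTR1, TEAD3, STK3 and AMOTL2 over the stages, and of WWTR1 and STK3 from 4C to 8C passed in the same direction under every alternative run. When single libraries were left out, the number of Hippo genes called ranged from 5 to 6 over the stages, from 3 to 4 across genome activation, from 0 to 2 from MII to 2C, from 2 to 3 from 4C to 8C and from 0 to 1 for blastocysts against morulae. From MII to 2C, where none was called, total reads and DESeq2 each called 2 and a pseudocount of 0.5 called 1. For blastocysts against morulae, also with none called, total reads called 1, a pseudocount of 5 called 2, and the fit without 8C replicate 2 and 2C replicate 2 called 1. The causes were not tested.

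Changes that turned direction had not passed the test. For STK3 across genome activation the change became 0.25 with total reads, 0.29 without 2C replicate 2, 0.18 without 4C replicate 1, 0.33 without 4C replicate 2, 0.18 without 8C replicate 1, 0.11 without 8C replicate 2 and 0.46 without 8C replicate 2 and 2C replicate 2 together. From MII to 2C, WWTR1 became 0.0051 with total reads, 0.68 without MII replicate 2 and 0.34 without 2C replicate 2, with or without 8C replicate 2. TEAD1 became -1.72 without MII replicate 2 and -1.22 without 2C replicate 2, again with or without 8C replicate 2, and LATS2 became 0.19 with total reads. From 4C to 8C, NF2 became -0.063 without 8C replicate 1. For blastocysts against morulae, STK3 became -0.15 with TMM factors, -0.038 by edgeR, -0.03 without EM replicate 1, -0.03 without CM replicate 2 and -0.36 without BL replicate 2, and NF2 became 0.21 without CM replicate 1. The other ends of the ranges over single libraries left out were -0.61 for STK3 across genome activation, -1.38 for WWTR1 and 2.74 for TEAD1 from MII to 2C, 2.72 for NF2 from 4C to 8C, and 0.60 for STK3 and -1.26 for NF2 for blastocysts against morulae. The causes were not tested.

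Counts over all loci moved by over 1.5 times under some settings. Across genome activation, 7075 loci were called with no filter against 4619. From MII to 2C, 496 were called with total reads, 381 by DESeq2, 44 by edgeR and 52 without 8C replicate 2 and 2C replicate 2, against 137. Leaving out single libraries gave 16 to 332 from MII to 2C, 1993 to 3707 from 4C to 8C (3560 with all libraries) and 225 to 1221 for blastocysts against morulae (907 with all libraries). The stage of the highest mean was the same by CPM and by the deposited value for 6 of 9 genes. It moved for LATS2 from 2C to MII, for NF2 from EM to 8C and for AMOTL2 from EM to 16C. A single library at a stage was assumed to vary like the other stages.

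Replicate numbers mark different oocytes and embryos. Over 28 pairs of stages the deviations of libraries with the same number correlated between -0.283 and 0.139 (median 0.0056), with 1 pair above 0.1. This check showed no pairing by number, but it could miss a weak one. With the replicate number as a block, 5, 4, 0, 3 and 0 Hippo genes were called in the 5 comparisons, in the order above, and no call of theirs changed. Among other pathway genes the block left 29 of 30 calls over the stages, 11 of 12 from 4C to 8C (STK4 lost, adjusted p = 0.0561) and 5 of 6 for blastocysts against morulae (TEAD2 lost in this comparison and over the stages). Loci of a Hippo gene were not summed, since each had 1 locus. With both loci summed, the changes across genome activation were -1.93 for VGLL4, -2.18 for TAOK1 and 1.52 for YWHAB, all still called. At 3 reads the floor reached 4.94 CPM, which limits LATS1, AMOTL1 and NF2.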
